A study of Mus musculus with 6 samples.

Results

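The 10 genes described here encode the core of the Notch pathway in a deposited mouse expression table: the receptors Notch1, Notch2, Notch3 and Notch4, the ligands Jag1, Jag2 and Dll1, and the target genes Hes1, Hey1 and Heyl. They were taken by gene symbol from the 47480 genes of the table, and all 10 were found. The table holds RNA sequencing of primary neonatal chondrocytes, the cells of cartilage, from A2ARKO mice and from WT mice. A2ARKO mice carry a global deletion of the adenosine receptor encoded by Adora2a, on a C57BL/6 background, and WT mice are C57BL/6 without the deletion. Both were raised in 1 facility. Each library holds RNA pooled from the trypsinized chondrocytes of a whole litter, with 3 litters per genotype, so a replicate is a litter pool and a p-value measures the spread between litters. The study set out to characterize drivers of osteoarthritis, the joint disease in which cartilage is lost.

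Notch receptors are single-pass membrane proteins that are activated by ligands of the Jagged and Delta families on neighbouring cells. Binding leads to cleavage by ADAM proteases and then by gamma-secretase, and the freed intracellular domain enters the nucleus, where it turns the DNA-binding protein RBPJ from a repressor into an activator. The best known direct targets are the HES and HEY genes, whose basic helix-loop-helix products repress transcription. In cartilage, Notch signalling acts in the perichondrium and in the growth plate, restrains chondrocyte differentiation when it is sustained, and has been linked to osteoarthritis in mouse models.

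Values are FPKM, that is fragments scaled to gene length and to library size, which are levels per length and can be set side by side between genes. The depth behind them, estimated from the step size of the lowest values, was 51.5 to 58.1 M reads (M, mega) in A2ARKO libraries and 41.6 to 52.65 M reads in WT libraries. Adora2a read 0.41, 0.54 and 0.66 FPKM in A2ARKO libraries, against 9.36, 7.31 and 3.46 FPKM in WT libraries. The libraries differed in their cell type markers. The 7 chondrocyte markers, led by Col2a1 and Comp, were detected in every library, but their summed level ranged from 2080 to 5715 FPKM in A2ARKO and from 378 to 22846 FPKM in WT, highest in WT replicate 1 and lowest in WT replicate 3. The summed skeletal muscle markers, led by Acta1 and Myog, reached 541.3 FPKM in WT replicate 2, against 4.6 to 18.9 FPKM in the other libraries. The 8 macrophage and leukocyte markers, led by Lyz2 and Cd68, summed to 25.6 to 49.9 FPKM in A2ARKO and 124 to 1705 FPKM in WT, and the 6 fibroblast and perichondrium markers, led by Col1a1 and Col3a1, to 1957 to 3620 FPKM in A2ARKO and 5329 to 6395 FPKM in WT. None of the 4 erythroid markers, Hbb-bs and Alas2 included, exceeded 1 FPKM in any library, and 1 of the 4 was at 0 in all of them. The osteoblast markers, led by Ibsp and Alpl, summed to 36.9 to 67.05 FPKM in A2ARKO and 6.00 to 499 FPKM in WT, and the markers of glia and neurons, led by S100b and Tubb3, to 18.7 to 31.9 FPKM in A2ARKO and 15.3 to 39.3 FPKM in WT. Pooled RNA of this kind cannot tell fewer cells of a type from less RNA per cell.

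Of the 10 members, 5 reached 1 FPKM in at least 3 of the 6 libraries and entered the test: Notch1, Notch2, Notch3, Jag1 and Hes1. None of the 5 was called between the genotypes (limma on log2(FPKM + 1), adjusted p below 0.05), and none had an unadjusted limma p below 0.05. Sizes are given below as the log2 difference, A2ARKO minus WT, of log2(FPKM + 1). Over all 11595 genes tested, 589 or 5.08% were called and 24.7% had an unadjusted p below 0.05. The other members, Notch4, Jag2, Dll1, Hey1 and Heyl, stayed below the filter and are described by their values. Of these, Heyl was the member whose A2ARKO and WT libraries did not overlap, at traces of expression.

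**Figure D1:**
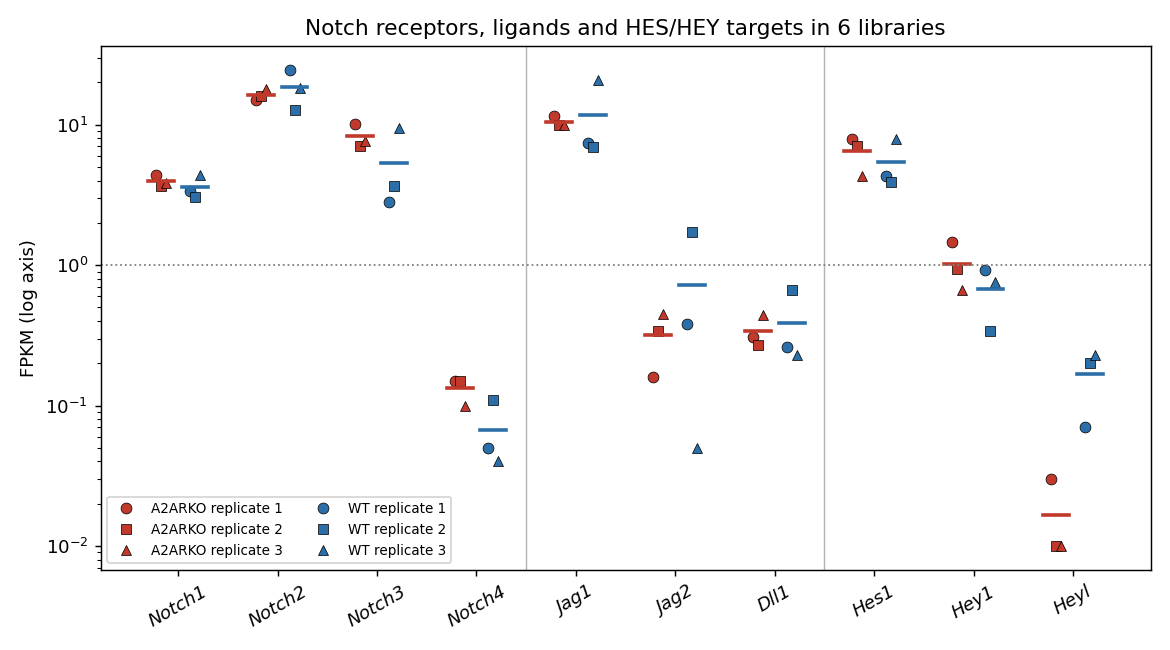
FPKM of each member (log axis) in every library, with A2ARKO in red left of WT in blue, symbols for the replicate numbers, horizontal bars for group means and a dotted line at 1 FPKM. Notch2, at 12.6 FPKM or more, and Jag1, at 6.97 FPKM or more, lie at the top in both genotypes, and Heyl is the member without overlap between the groups.

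Notch2 was the most abundant receptor in every library. Its gene lies on mm10 chromosome 3 (98013527 to 98150361, plus strand), and it read 15.01, 15.97 and 17.89 FPKM in A2ARKO libraries, against 24.6, 12.62 and 18.17 FPKM in WT libraries. The WT libraries enclosed all A2ARKO values, with the highest in WT replicate 1 and the lowest in WT replicate 2. The mean was 16.3 ± 1.47 FPKM in A2ARKO and 18.5 ± 5.995 FPKM in WT (SD, n = 3 each). The log2 difference was -0.13 (SE 0.23, 95% interval -0.69 to 0.43; adjusted p = 0.782 by limma).

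Notch3, a receptor best known from vascular smooth muscle and pericytes, had the largest difference among the tested members. Its gene, on mm10 chromosome 17 (32120820 to 32166852, minus strand), read 10.1, 7.03 and 7.61 FPKM in A2ARKO libraries, against 2.81, 3.68 and 9.54 FPKM in WT libraries. All A2ARKO libraries stood above WT replicates 1 and 2, while WT replicate 3 lay within the A2ARKO range. The mean was 8.25 ± 1.63 FPKM in A2ARKO and 5.34 ± 3.66 FPKM in WT (SD, n = 3 each), at a log2 difference of 0.68 (SE 0.39, 95% interval -0.26 to 1.62; adjusted p = 0.337 by limma). The value depended on single WT libraries in both directions. Without WT replicate 1 the log2 difference was 0.38 (adjusted p = 0.529 by limma) and without WT replicate 2 it was 0.53 (adjusted p = 0.530 by limma). Without WT replicate 3 it was 1.12 and Notch3 was called higher in A2ARKO (adjusted p = 0.0347 by limma), in a fit that called 7.35% of all genes tested.

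The libraries with the highest Notch3 were also those with the highest summed markers of mural cells and smooth muscle. These 7 markers, led by Acta2 and Tagln, summed to 1742, 1017 and 554 FPKM in A2ARKO replicates 1, 2 and 3, against 628, 639 and 1238 FPKM in WT replicates 1, 2 and 3. A2ARKO replicate 3 departed from this order, with 7.61 FPKM of Notch3 and the lowest summed markers. Acta2 read 330 to 1147 FPKM in A2ARKO libraries and 307 to 831 FPKM in WT libraries, and none of the 7 markers was at 0 in every library. Myh11, the smooth muscle myosin heavy chain, named after its values were seen, read 6.69, 3.35 and 1.10 FPKM in A2ARKO libraries, against 0.30, 0.39 and 1.89 FPKM in WT libraries. It does not stand for the list. Of the 6 tested markers, 3 had a log2 difference above 0 and 3 below, from -1.22 to 1.25 with a median of 0.08, and 0 were called. The part of these markers in the Notch3 values was not tested.

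Notch1 had the smallest SD of log2(FPKM + 1) among the 5 tested members in both genotypes, at 0.104 in A2ARKO and 0.212 in WT. Its gene (mm10 chromosome 2, 26457903 to 26516663, minus strand) read 4.36, 3.66 and 3.85 FPKM in A2ARKO libraries, against 3.36, 3.03 and 4.36 FPKM in WT libraries. The groups overlapped and shared the same highest value. The log2 difference was 0.12 (SE 0.13, 95% interval -0.20 to 0.44; adjusted p = 0.623 by limma). Notch4, a receptor mainly of endothelial cells, was near the bottom of the list at 0.15, 0.15 and 0.10 FPKM in A2ARKO libraries, against 0.05, 0.11 and 0.04 FPKM in WT libraries. These values stand for about 62, 70 and 43 reads in A2ARKO and 17, 44 and 17 reads in WT. The groups overlapped by 1 library, and a two-sided exact permutation test returned p = 0.2. Of the 7 endothelial markers, led by Tek and Egfl7, 5 stayed below 1 FPKM in every library, and their sum was 2.5 to 3.04 FPKM in A2ARKO and 2.22 to 5.35 FPKM in WT.

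The mix of receptors varied widely among WT litters. Notch2 held 50.7%, 59.6% and 60.75% of the summed receptor FPKM in A2ARKO libraries, against 79.8%, 64.9% and 56.6% in WT libraries. Notch3 held 34.1%, 26.2% and 25.8% in A2ARKO libraries, against 9.12%, 18.9% and 29.7% in WT libraries. WT replicate 1, with the highest chondrocyte markers, had the most Notch2 and the least Notch3, and WT replicate 3, with the lowest chondrocyte markers, had shares of Notch1, Notch2 and Notch3 within the A2ARKO range. Such shares do not depend on how a library was scaled. The summed receptor level was 26.8 to 29.6 FPKM in A2ARKO and 19.4 to 32.1 FPKM in WT, so the groups overlapped.

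**Figure D2:**
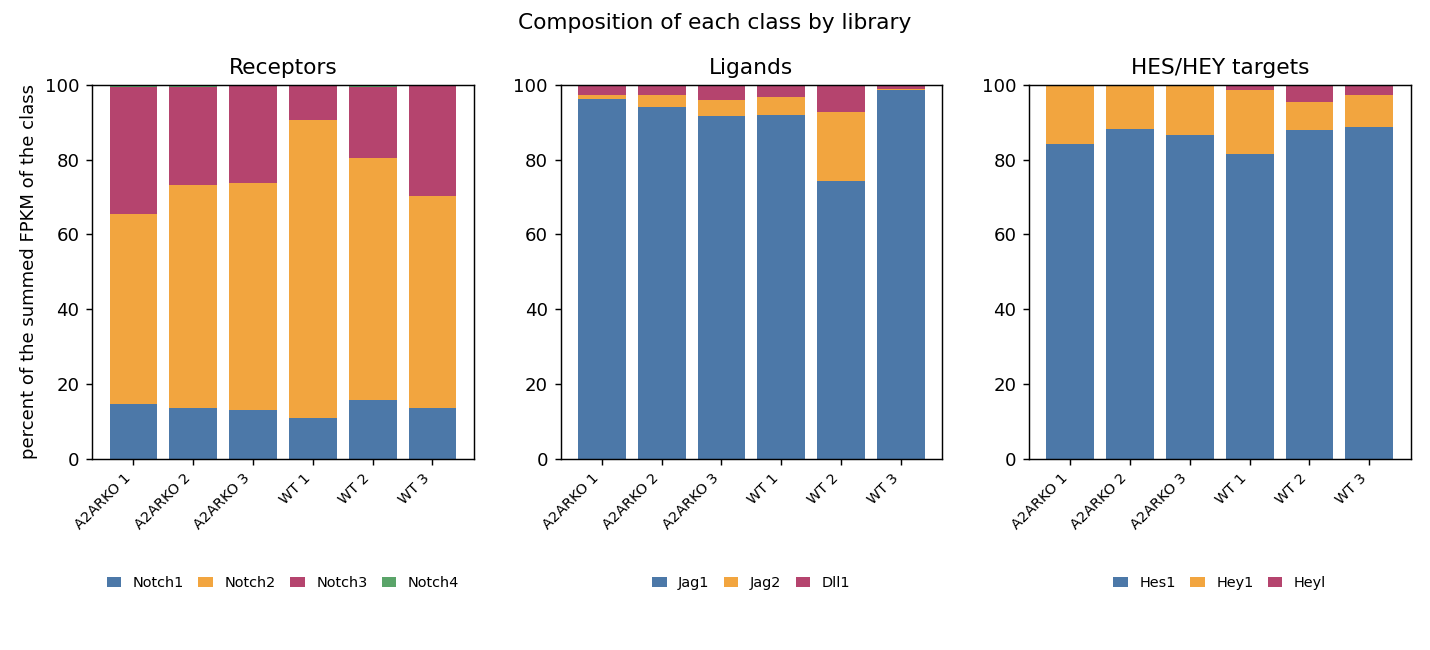
Share of each member in the summed FPKM of its class (percent) for receptors, ligands and HES/HEY targets, 1 bar per library with A2ARKO left of WT. Notch2 takes from 50.7% to 79.8% of the receptors, Jag1 from 74.4% to 98.7% of the ligands and Hes1 from 81.4% to 88.9% of the targets.

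Among the ligands, Jag1 was the most abundant in every library. Jag1 lies on mm10 chromosome 2 (137081456 to 137116644, minus strand) and encodes Jagged1, the main Notch ligand of limb mesenchyme and skeletal progenitors. It read 11.6, 9.88 and 9.94 FPKM in A2ARKO libraries, against 7.41, 6.97 and 20.78 FPKM in WT libraries. The A2ARKO libraries fell between the WT libraries, above replicates 1 and 2 and below replicate 3. The mean was 10.5 ± 0.976 FPKM in A2ARKO and 11.7 ± 7.85 FPKM in WT (SD, n = 3 each), at a log2 difference of 0.01 (SE 0.39, 95% interval -0.94 to 0.96; adjusted p = 0.991 by limma). Without WT replicate 3 the log2 difference was 0.48 (adjusted p = 0.0552 by limma).

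The other ligands were low and highest in WT replicate 2. Jag2 (mm10 chromosome 12, 112907819 to 112929776, minus strand), which encodes a second Jagged protein, read 0.16, 0.34 and 0.45 FPKM in A2ARKO libraries, against 0.38, 1.73 and 0.05 FPKM in WT libraries. The 2 extremes of Jag2 were both WT libraries, and the exact permutation test, two-sided, gave p = 0.8. Dll1, a Delta-family ligand (mm10 chromosome 17, 15367354 to 15376872, minus strand), read 0.31, 0.27 and 0.44 FPKM in A2ARKO libraries, against 0.26, 0.67 and 0.23 FPKM in WT libraries, with overlapping groups and an exact permutation p = 1. WT replicate 2 was the library with 541.3 FPKM of skeletal muscle markers and 1705 FPKM of macrophage and leukocyte markers. The part of these cells in the Jag2 and Dll1 values was not tested. Jag1 held 91.8% to 96.1% of the summed ligand FPKM in A2ARKO libraries, against 74.4% in WT replicate 2 and 92.05% and 98.7% in the other WT libraries.

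Hes1 was the leading target gene, and the groups overlapped. Hes1 lies on mm10 chromosome 16 (30064384 to 30067796, plus strand) and encodes a repressor that also lowers its own transcription. It read 7.95, 7.08 and 4.33 FPKM in A2ARKO libraries, against 4.33, 3.91 and 7.90 FPKM in WT libraries. In each genotype libraries of 4.33 FPKM or less stood beside libraries of 7.08 FPKM or more, so the spread within a genotype was nearly as wide as the span of all 6 libraries. The mean was 6.45 ± 1.89 FPKM in A2ARKO and 5.38 ± 2.19 FPKM in WT (SD, n = 3 each), at a log2 difference of 0.24 (SE 0.29, 95% interval -0.47 to 0.96; adjusted p = 0.663 by limma).

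Hey1 (mm10 chromosome 3, 8663359 to 8667256, minus strand), which encodes a related repressor, read 1.46, 0.94 and 0.66 FPKM in A2ARKO libraries, against 0.92, 0.34 and 0.76 FPKM in WT libraries. The groups overlapped, and p was 0.4 in a two-sided exact permutation test. Its highest library, A2ARKO replicate 1, was also the highest for Hes1 and Notch3.

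Heyl (mm10 chromosome 4, 123233556 to 123249875, plus strand), a HEY-family gene known as a Notch3 target in vascular smooth muscle, was at trace levels of 0.03, 0.01 and 0.01 FPKM in A2ARKO libraries, against 0.07, 0.20 and 0.23 FPKM in WT libraries. These are about 7.9, 3.0 and 2.7 reads in A2ARKO and 14.9, 51.0 and 61.9 reads in WT, and the rounding of the table alone is worth 1.1 to 1.5 reads of Heyl. Every A2ARKO library lay below every WT library. Among the 5 members under the filter this absence of overlap held for 1, and among all 14847 detected genes under the filter it held, in either direction, for 11.9%. A two-sided exact permutation test could not go below p = 0.1 with 3 libraries in each group, and Heyl reached that p = 0.1. The fit without a filter gave a limma adjusted p = 0.175. The summed markers of macrophages and leukocytes and those of fibroblasts and perichondrium were lower in every A2ARKO library too (25.6 to 49.9 against 124 FPKM or more in WT, and 1957 to 3620 against 5329 FPKM or more in WT). Those of mural cells and smooth muscle overlapped between the genotypes (554 to 1742 FPKM in A2ARKO, 628 to 1238 FPKM in WT). The endothelial sums overlapped too (2.5 to 3.04 FPKM in A2ARKO, 2.22 to 5.35 FPKM in WT). Single markers did not all follow the lower sums. Of 7 tested macrophage and leukocyte markers, 6 had a log2 difference below 0 and 1 above, and 5 did not overlap between the genotypes. Of 6 tested fibroblast and perichondrium markers, 4 were below 0 and 2 above, and 3 did not overlap. Over all tested genes, 32.9% did not overlap. The part of any of these markers in the Heyl values was not tested. As a share of the 3 targets, Heyl was 0.318%, 0.125% and 0.200% in A2ARKO libraries, against 1.32%, 4.49% and 2.59% in WT libraries.

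The order of levels was much the same in both genotypes at the top. In A2ARKO the means ran Notch2, Jag1, Notch3, Hes1, Notch1, Hey1, Dll1, Jag2, Notch4 and Heyl. The ranges of neighbours overlapped for Jag1 with Notch3, Notch3 with Hes1, Hes1 with Notch1 and Dll1 with Jag2. Within libraries, Jag1 stood above Notch3 and Hes1 above Notch1 in 3 of 3 A2ARKO libraries, Notch3 above Hes1 in 2 of 3 and Dll1 above Jag2 in 1 of 3. In WT the means ran Notch2, Jag1, Hes1, Notch3, Notch1, Jag2, Hey1, Dll1, Heyl and Notch4, and the neighbouring ranges overlapped everywhere except between Notch1 and Jag2. Of the overlapping WT neighbours, Jag1 stood above Hes1 and Heyl above Notch4 in 3 of 3 libraries, and the other pairs kept their order in 1 or 2 of 3. Set among the 11595 tested genes, the mean level over the 6 libraries stood at percentile 75.2 for Notch2, 62.1 for Jag1, 46.5 for Notch3, 41.8 for Hes1 and 28.1 for Notch1.

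The spread between litters was wide for 4 of the 5 tested members in WT. In A2ARKO the SD of log2(FPKM + 1) was 0.120 for Jag1, 0.246 for Notch3, 0.396 for Hes1 and 0.121 for Notch2, against a median of 0.0966. Over the WT libraries it was 0.816 for Jag1, 0.776 for Notch3, 0.465 for Hes1 and 0.456 for Notch2, against a median of 0.192 over all tested genes. In WT replicate 3, Notch1, Notch3, Jag1 and Hes1 all stood at their highest WT value.

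**Figure D3:**
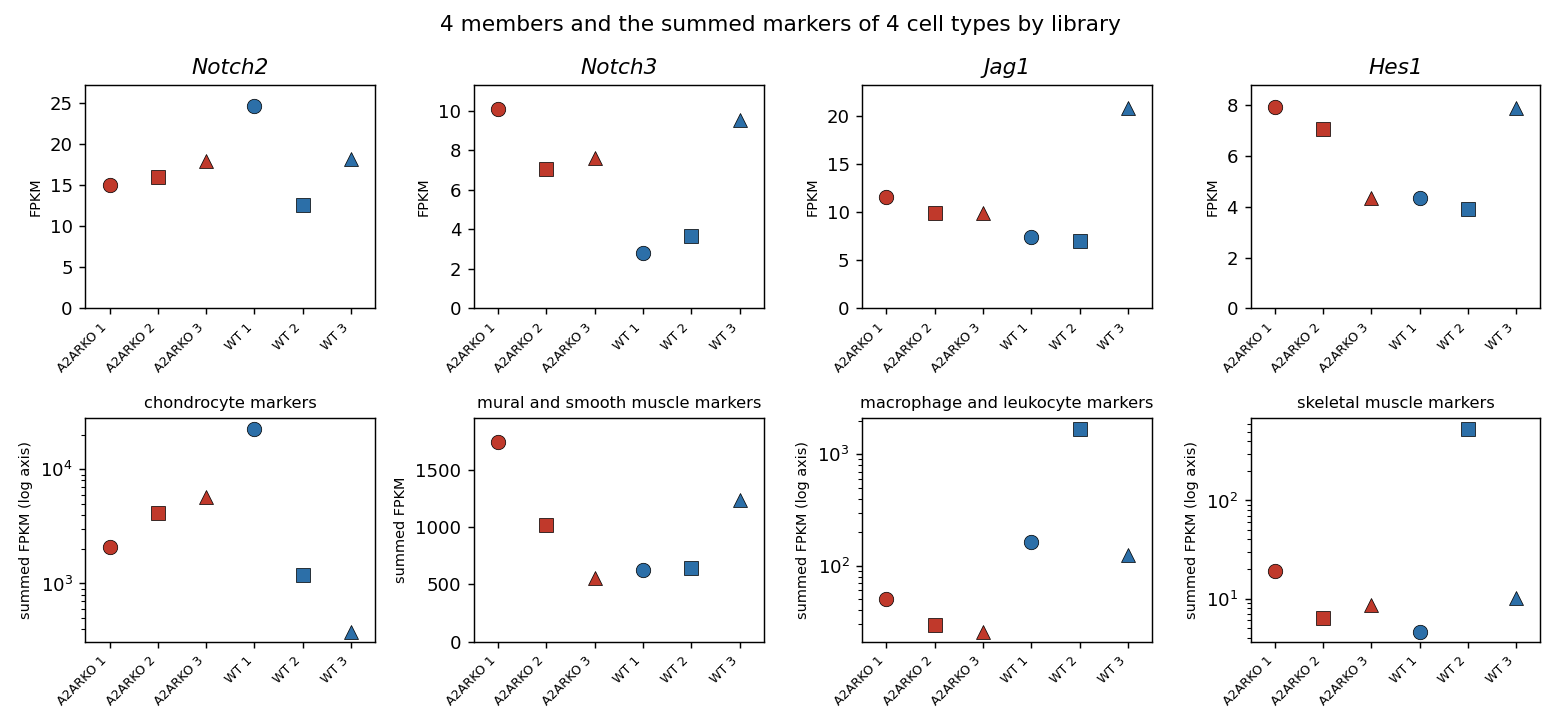
FPKM of Notch2, Notch3, Jag1 and Hes1 (upper row, linear axes) and the summed FPKM of 4 marker lists (lower row, log axes except for mural markers) in each library, A2ARKO in red left of WT in blue. WT replicate 3 has the highest WT values of Notch3 (9.54 FPKM), Jag1 (20.78 FPKM) and Hes1 (7.90 FPKM) and the lowest chondrocyte markers (378 FPKM), while WT replicate 2 has the highest muscle and macrophage markers.

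Since none of the tested members was called, the genes most like Notch3 and Notch1, the 2 with the smallest unadjusted p, were sought by the Pearson correlation of log2(FPKM + 1) over the 6 libraries. For Notch3 they were the phosphoinositide phosphatase gene Mtmr4 (r = 0.992), the centriolar protein gene Cntrl (r = 0.990) and the chromatin regulator gene Arid5b (r = 0.987). Arid5b read 26.17, 19.15 and 19.09 FPKM in A2ARKO libraries, against 9.45, 11.59 and 21.02 FPKM in WT libraries, which is the order seen for Notch3 except that A2ARKO replicates 2 and 3 trade places. For Notch1 they were the bromodomain gene Brd8 (r = 0.991), the myosin phosphatase subunit gene Ppp1r12b (r = 0.978) and the transcriptional co-regulator gene Hcfc1 (r = 0.975). Each set of 3 holds the highest r among the 11595 tested genes, predicted genes left out, so high values are built into the choice. All of these points share the same 6 libraries, and the values are a description.

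The sequences just upstream of Notch2 and Jag1 are shown as those of the leading receptor and the leading ligand, and that of Notch3 as the tested member with the largest difference. They come from the RefSeq promoter table on GRCm38.p6, the assembly named mm10, 5′ to 3′ on the strand of the gene. Each stops where an annotated exon begins or after 250 bases, as that of Notch3 does. Notch3 is at chr17:32166891-32167140 (minus), Notch2 at chr3:98013288-98013526 (plus) and Jag1 at chr2:137116645-137116770 (minus). Capitals mark the N box CACNAG, the site bound by HES repressors, or its reverse complement CTNGTG; the core of the RBPJ site, TGGGAA or TTCCCA, was also searched.
Notch3: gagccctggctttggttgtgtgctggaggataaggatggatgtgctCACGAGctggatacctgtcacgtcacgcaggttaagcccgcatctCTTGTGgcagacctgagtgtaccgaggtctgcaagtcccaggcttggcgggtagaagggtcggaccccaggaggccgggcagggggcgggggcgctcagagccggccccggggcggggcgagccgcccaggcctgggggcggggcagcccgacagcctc
Notch2: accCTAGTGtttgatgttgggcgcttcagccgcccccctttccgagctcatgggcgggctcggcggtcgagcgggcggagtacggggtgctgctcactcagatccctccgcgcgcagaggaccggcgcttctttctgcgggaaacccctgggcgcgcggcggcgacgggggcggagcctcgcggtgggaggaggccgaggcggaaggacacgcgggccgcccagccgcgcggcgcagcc
Jag1: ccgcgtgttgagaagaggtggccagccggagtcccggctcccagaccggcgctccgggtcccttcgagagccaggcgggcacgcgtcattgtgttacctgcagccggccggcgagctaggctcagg
The stretch before Notch3 holds 2 N boxes and that before Notch2 holds 1, while that before Jag1 holds 0. The windows of the promoter table run from 250 bases before a RefSeq start of a gene to 50 after it. The table matched 7 of the 10 members in 8 windows: Notch1, Notch2, Notch3, Notch4, Jag1, Jag2 and Dll1. The N box, on either strand, was found in 4 of these 8 windows and in 42.5% of all 32851 windows. The Notch1 window, which holds N boxes, lies at chr2:26503773-26504072, inside the gene and away from the start at 26516663 given above. The RBPJ core TGGGAA was found in 0 of 8 windows and in 25.6% of all windows, and the E box CACGTG, which is its own reverse complement, in 0 of 8 and in 7.15%. Of these motifs, 2 matches of the N box overlap each other in the Notch1 window. The absence of these letters holds for these windows only, and the target genes Hes1, Hey1 and Heyl had no window in the promoter table.

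Around the members, 80 further genes of Notch ligand biology, receptor processing, nuclear complexes and trafficking were examined, of which 67 passed the filter. Of the 67, 1 fell, 0 rose and 66 did not pass, or 1.49% called, against 5.08% of all tested genes. The share with an unadjusted limma p below 0.05 was 16.4%, against 24.7% of all tested genes, and the share without overlap between the genotypes was 23.9%, against 32.9% of all tested genes. The median log2 difference was 0.01 over the 67 and 0.00 over all tested genes, with 34 above 0 and 33 below.

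**Figure D4:**
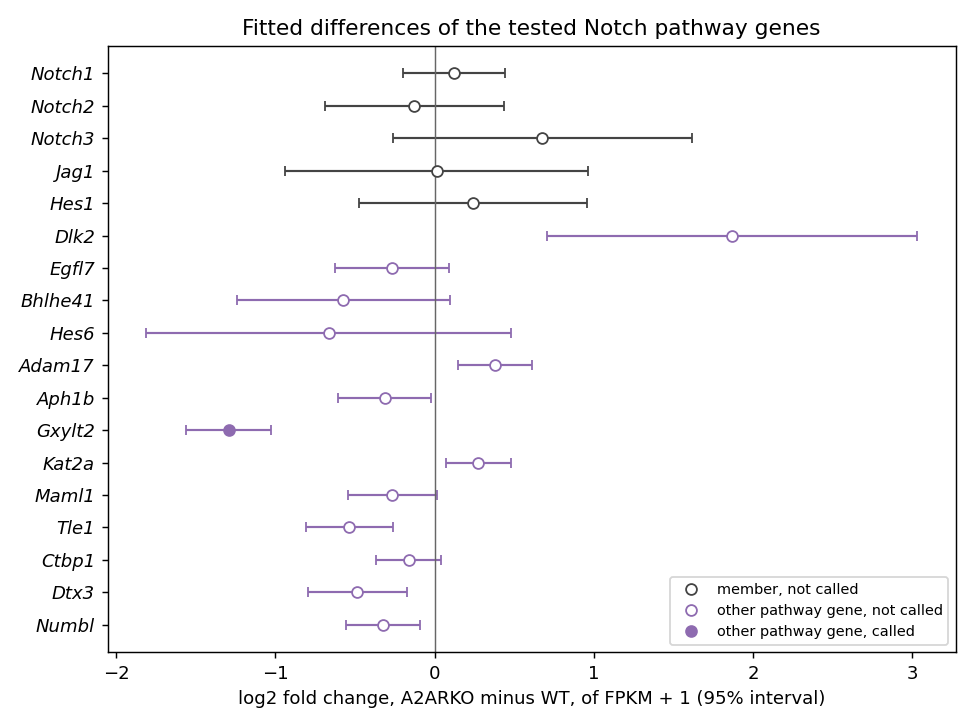
Fitted log2 differences, A2ARKO minus WT, of the 5 tested members and the 13 other pathway genes named by rule, with 95% intervals from limma on log2(FPKM + 1); a filled point was called. Gxylt2, at -1.29, is the called gene, and the intervals of the 5 members all include 0.

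Gxylt2, which encodes a glucoside xylosyltransferase that adds xylose to O-glucose on the EGF repeats of Notch receptors, was the pathway gene that fell. It read 4.07, 3.36 and 3.05 FPKM in A2ARKO libraries, against 9.24, 10.55 and 10.16 FPKM in WT libraries. The groups did not overlap, and the highest A2ARKO library stood well below the lowest WT library. The mean was 3.49 ± 0.523 FPKM in A2ARKO and 9.98 ± 0.673 FPKM in WT (SD, n = 3 each), at a log2 difference of -1.29 (SE 0.11; adjusted p = 0.00628 by limma). Without A2ARKO replicate 2 the limma adjusted p was 0.0511 at a log2 difference of -1.28. The summed fibroblast and perichondrium markers were also lower in every A2ARKO library (1957 to 3620 FPKM, against 5329 to 6395 FPKM in WT), as were those of macrophages and leukocytes (25.6 to 49.9 FPKM, against 124 to 1705 FPKM in WT), and their part in this difference was not tested. Not every marker followed its sum. The log2 difference was above 0 for 2 of 6 tested fibroblast and perichondrium markers and for 1 of 7 tested macrophage and leukocyte markers.

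Gxylt2 lies on mm10 chromosome 6 (100704734 to 100810913, plus strand). Its upstream sequence from the same RefSeq table, at chr6:100704484-100704733 (plus), is shown as that of the called pathway gene, with the letters TTCCCA, the reverse complement of the RBPJ core, in capitals.
Gxylt2: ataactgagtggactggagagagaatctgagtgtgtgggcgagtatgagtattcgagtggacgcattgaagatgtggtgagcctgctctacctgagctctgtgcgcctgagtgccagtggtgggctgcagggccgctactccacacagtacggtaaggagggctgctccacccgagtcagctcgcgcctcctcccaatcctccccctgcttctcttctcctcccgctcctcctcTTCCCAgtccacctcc
This stretch holds 1 RBPJ core and 0 N boxes, and a match is a description of the letters, not of binding.

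The other 7 tested genes of receptor glycosylation did not pass, and the list's median log2 difference was -0.0079. The log2 differences of the list, Gxylt2 included, ran from -1.29 to 0.40. Of its 8 tested genes, 3 had an unadjusted limma p below 0.05 (37.5%, against 24.7% of all tested genes). No overlap between the genotypes was seen for 3 of the 8 (37.5%, against 32.9% of all tested genes). Lfng, whose product adds N-acetylglucosamine to O-fucose on Notch, read 6.24, 3.56 and 3.01 FPKM in A2ARKO libraries, against 2.98, 5.71 and 4.50 FPKM in WT libraries, at a log2 difference of -0.05 (adjusted p = 0.934 by limma). Gxylt1, the paralog of Gxylt2, read 5.31, 5.84 and 5.55 FPKM in A2ARKO libraries, against 3.87, 5.06 and 6.46 FPKM in WT libraries, at a log2 difference of 0.12 (adjusted p = 0.697 by limma). Both were named after their values were seen. The A2ARKO values of Gxylt1 lay inside the WT range.

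Of the 4 tested ligand-like genes, 0 passed. Dlk2, which encodes a membrane protein related to Delta ligands, read 7.44, 10.69 and 9.19 FPKM in A2ARKO libraries, against 5, 0.71 and 1.02 FPKM in WT libraries. Every A2ARKO library lay above every WT library, and WT replicate 1, the library with the highest chondrocyte markers, was the nearest. The log2 difference was 1.87 (SE 0.48; adjusted p = 0.0810 by limma), and without WT replicate 1 it was 2.43 and called (adjusted p = 0.00626 by limma). Egfl7, a secreted endothelial protein, averaged 0.927 ± 0.167 FPKM in A2ARKO and 1.33 ± 0.368 FPKM in WT (SD, n = 3 each; adjusted p = 0.323 by limma).

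The 3 tested genes of the other HES, HEY and feedback group also did not pass, and 7 of its 10 genes stayed below 1 FPKM in every library, with Hes5, Hey2 and Nrarp, named after their values were seen, among them. Hes6, which encodes an inhibitor of HES1, averaged 8.63 ± 0.844 FPKM in A2ARKO and 16.96 ± 12.997 FPKM in WT (SD, n = 3 each; adjusted p = 0.438 by limma). Its WT mean rests on replicate 2, at 31.83 FPKM, while the other WT libraries read 11.28 and 7.77 FPKM. Bhlhe41, a related repressor of the circadian clock, had a log2 difference of -0.57 (adjusted p = 0.261 by limma).

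For the cleavage of receptors, 0 of 9 tested genes passed, and the list had a median log2 difference of 0.03. Adam17, a protease that can make the extracellular cut in Notch, read 21.34, 20.55 and 21.21 FPKM in A2ARKO libraries, against 14.15, 17.43 and 16.42 FPKM in WT libraries. The groups did not overlap, and the log2 difference was 0.38 (SE 0.10; adjusted p = 0.0797 by limma). Aph1b, a gamma-secretase subunit gene, averaged 2.01 ± 0.231 FPKM in A2ARKO and 2.75 ± 0.4095 FPKM in WT (SD, n = 3 each; adjusted p = 0.176 by limma). Adam10, the main protease for that cut, had a log2 difference of -0.13 (adjusted p = 0.558 by limma) and was named after its values were seen.

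For the nuclear partners of the intracellular domain, 0 of 8 tested co-activator genes passed (median log2 difference 0.07). Rbpj itself, named after its values were seen, read 4.69, 6.69 and 6.78 FPKM in A2ARKO libraries, against 5.94, 4.66 and 5.99 FPKM in WT libraries. Its groups overlapped, at a log2 difference of 0.10 (adjusted p = 0.738 by limma). The acetyltransferase gene Kat2a and the Mastermind gene Maml1 had log2 differences of 0.27 and -0.27 (limma adjusted p of 0.116 and 0.220).

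Of 17 co-repressor genes, 0 passed. The one nearest to the threshold was Tle1, which encodes a Groucho-family partner of HES proteins. Tle1 read 2.44, 3.19 and 3.34 FPKM in A2ARKO libraries, against 4.62, 4.89 and 4.76 FPKM in WT libraries. Its groups did not overlap, and the log2 difference was -0.54 (SE 0.11; adjusted p = 0.0525 by limma); after quantile normalization it was called lower (adjusted p = 0.0436 by limma). Ctbp1, another co-repressor gene, had a log2 difference of -0.16 (adjusted p = 0.296 by limma).

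Among 18 tested regulators of endocytosis and ubiquitination 0 passed, with a median log2 difference of -0.03. Dtx3, of the Deltex ubiquitin ligase family, averaged 23.7 ± 4.0045 FPKM in A2ARKO and 33.4 ± 1.096 FPKM in WT (SD, n = 3 each), at a log2 difference of -0.49 (adjusted p = 0.0862 by limma). Numbl, a relative of the Notch inhibitor Numb, averaged 8.57 ± 0.835 FPKM in A2ARKO and 10.97 ± 0.650 FPKM in WT (SD, n = 3 each; adjusted p = 0.106 by limma).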

How the data were processed

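The authors deposited 1 table of FPKM with 47480 genes and 6 libraries, with values given to 2 decimals. HTSeq and the build mm10 were used, per the submitters' processing notes. Not given in the sources used here are the aligner, the annotation, the gene lengths and whether counting used strand. With strand unknown, reads of the antisense transcripts that share exons with Notch1, Notch3 and Dll1 cannot be told apart from those genes; the listed antisense transcripts reached at most 0.60 FPKM. Columns were assigned to samples by title.

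Depth came from the steps between low values: among genes of at most 150 nt, FPKM times exon length (GENCODE M21 on GRCm38) gave whole reads, within 0.1 read, for 99.0% or more of values up to 10 reads. Reads given for a gene use the same lengths and are approximate, since the authors' annotation may differ. Between libraries of 1 genotype, the median squared difference in approximate reads was at least 14.7 times that expected from sampling noise. None was therefore a copy of another within that noise, and that each is a separate litter comes from the labels.

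Genes at 1 FPKM or more in at least 3 libraries (11595) were fitted with limma 3.58.1 in R 4.3.3 (lmFit, eBayes with intensity trend) on log2(FPKM + 1), two-sided, over all 6 libraries with no replicate block and Benjamini-Hochberg adjustment over all tested genes. Calls were made at an adjusted p below 0.05. Differences on this scale understate those of low genes. Genes under the filter were compared by exact permutation tests.

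The members, gene lists and tests were chosen with earlier results of these data known. Named genes are all members, Adora2a, from each pathway list up to 4 called genes with the largest change or else the 2 with the smallest unadjusted p, for the 2 members with the smallest p the 3 most correlated genes other than predicted ones, and for each marker list its 2 most abundant genes; other names are marked as chosen after their values were seen. The alternatives were another pseudocount (0.1), 2 other filters, 2 other scalings, 2 other variance models, a replicate block and leaving out each library.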

Additional observations from a re-analysis of the deposited data

How the results depend on the processing

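None of the 5 tested members was called under any of the 14 alternatives except Notch3, in 1 fit: the number of called members was 0 to 1 with each library left out in turn, and the 1 was Notch3 without WT replicate 3. Notch1, Notch3 and Hes1 kept a positive log2 fold change in all 14, but with each library left out Notch1, at 0.12, ranged from 0.03 to 0.24, Notch3, at 0.68, from 0.38 to 1.12 and Hes1, at 0.24, from 0.08 to 0.51. Notch2 was 0.0942 without WT replicate 1 and negative otherwise (-0.36 to 0.0942 over the 14). Jag1, at 0.01, turned to -0.10 after rescaling to the same sum, to -0.0399 after quantile normalization, and lay between -0.24 and 0.48 with each library left out; Hcfc1 turned to -0.0211 after rescaling. The number of other pathway genes called, 1, was 2 after quantile normalization (Gxylt2 and Tle1), 0 with the replicate block and 0 to 2 with each library left out.

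Over all genes, 589 were called, 384 higher and 205 lower in A2ARKO. Without a filter these were 213, 143 and 70. After rescaling to the same sum 348 were called, 178 of them higher, so the share of higher calls was 51.1% in place of 65.2%, and 53.8% after quantile normalization. With each library left out, 50 to 900 genes were called, 39 to 568 higher and 11 to 362 lower. With the replicate block 2 were called, 1 higher and 1 lower, and the limma adjusted p was 0.0906 for Gxylt2 and 0.121 for Adora2a. The labels do not say that the numbers pair the litters. The correlation of deviations from the group means between same-numbered libraries was -0.52, -0.33 and -0.39, and no library correlated best with its own number. With 3 libraries per genotype these correlations depend on each other, so they cannot decide whether litters were paired. The cause of these shifts was not tested. With 3 litters per genotype, the intervals of Notch3 and Jag1 are wide. For Heyl and Notch4 the approximate reads were at most 70.3 in any library.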
